A study of Mus musculus with 16 samples.

Results

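The comparison described here is that of the 2 genotypes after adrenalectomy in the mouse stomach: 4 libraries from TTPΔARE mice (TTP-A 1 to 4) against 4 from wild-type mice (WT-A 1 to 4). They are 8 of the 16 libraries of the study and were chosen by their labels. The other 8 libraries hold the same genotypes in groups named S (TTP-S and WT-S, 4 each), whose treatment label names spasmolytic polypeptide-expressing metaplasia (SPEM); the labels do not spell out the letter S or say if these mice were operated on. All mice were female and 8 weeks old. The TTPΔARE mice are labelled congenic C57BL/6 and carry the genotype TTPΔARE, and the wild-type mice are labelled C57BL/6. The TTP-A and WT-A groups both carry a treatment label of gastric inflammation induced by adrenalectomy (ADX). RNA came from a 4 mm biopsy taken at the lesser curvature of the corpus, the acid-secreting main body of the stomach, so each library mixes all cell types of the wall. The genotypes differ in strain label too, so an effect of the allele and one of linked or background sequence cannot be told apart.

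Tristetraprolin (TTP), which Zfp36 encodes, attaches to AU-rich elements in the 3′ untranslated region (3′UTR) of short-lived messages, many of them for cytokines, and recruits the CCR4-NOT deadenylase so that they are degraded. Its own message carries such elements, and the TTPΔARE allele lacks an AU-rich stretch of that 3′UTR, which makes the Zfp36 message more stable and raises TTP protein throughout the body. Adrenalectomy removes the source of circulating glucocorticoids, steroid hormones that restrain inflammation. In the corpus, inflammation is known for the loss of acid-secreting parietal cells and for SPEM, in which zymogen-secreting chief cells take on features of mucous neck cells.

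The sequences in question are short. The core motif bound by TTP is commonly written as the nonamer TATTTATTT, and the pentamer ATTTA lies inside it. The windows below are reference sequence (GRCm38, the build the notes call mm10; GENCODE vM21, longest annotated 3′UTR of each gene), each 5′ to 3′ on the strand of the gene, with the motif in capitals (for the nonamer, 1 match a window). The first 2 show the 3 ATTTA pentamers of Zfp36, whose 774-base 3′UTR holds no TATTTATTT. The next 2 are from Ptgs2 and Lif, messages reported as TTP targets that were called in opposite directions below; the Ptgs2 window holds 2 overlapping matches, of which the first is in capitals. The last 2 are from Krt7 and Slc9a3, which were called lower below and whose 3′UTR holds the nonamer.
Zfp36 (chr7:28376958-28376987, minus strand): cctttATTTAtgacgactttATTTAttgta
Zfp36 (chr7:28376933-28376947, minus strand): atagtATTTAtatat
Ptgs2 (chr1:150105787-150105815, plus strand): ctactgaccaTATTTATTTatttatgtga
Lif (chr11:4272428-4272456, plus strand): atatttaaaaTATTTATTTtttatactga
Krt7 (chr15:101429963-101429991, plus strand): aaaaaagattTATTTATTTattctatgta
Slc9a3 (chr13:74169071-74169099, plus strand): agagaatttcTATTTATTTaatactgaac

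The 8 libraries held 20897982 to 25849472 counts over genes and detected 17733 to 18377 genes. Of the 24964 genes in the table, 15385 passed a filter on low counts and were tested. Levels are given as CPM (counts scaled to a common library total) on effective library sizes, and differences as log2(TTP-A/WT-A) with the standard error (SE) of the fit. A gene was called when its Benjamini-Hochberg adjusted p in edgeR's quasi-likelihood test, over all genes tested, was under 0.05. The fit on all 16 libraries, in which the 4 groups share a dispersion estimate, is named the 16-library fit. All adjusted p-values below are edgeR values of this kind, n = 4 a group unless stated.

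Before any result, 2 wild-type libraries have to be set apart. In these libraries, WT-A 3 and WT-A 4, the deviation of a gene from its median over the libraries followed the GC content of its transcript (Spearman's rho over genes 0.716 and 0.738), while no other library of the 16 exceeded 0.302 in size. For the tenth of genes lowest in GC (median 39.9%) the median log2 deviation was −0.738 in WT-A 3 and −0.791 in WT-A 4, against 0.026 in WT-A 1 and −0.051 in WT-A 2. Calls between the genotypes after adrenalectomy are therefore also read from a 14-library fit without this pair, which leaves 2 wild-type libraries, and, for the named genes whose 16-library call it changes, from a 16-library fit with GC offsets. WT-A 4 further held more chief cell message than the other WT-A libraries: pepsinogen C (Pgc) took 9.94% of its counts, against 5.2% to 6.89% in WT-A 1 to 3 and 9.39% to 13.3% in TTP-A.

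**Figure D1:**
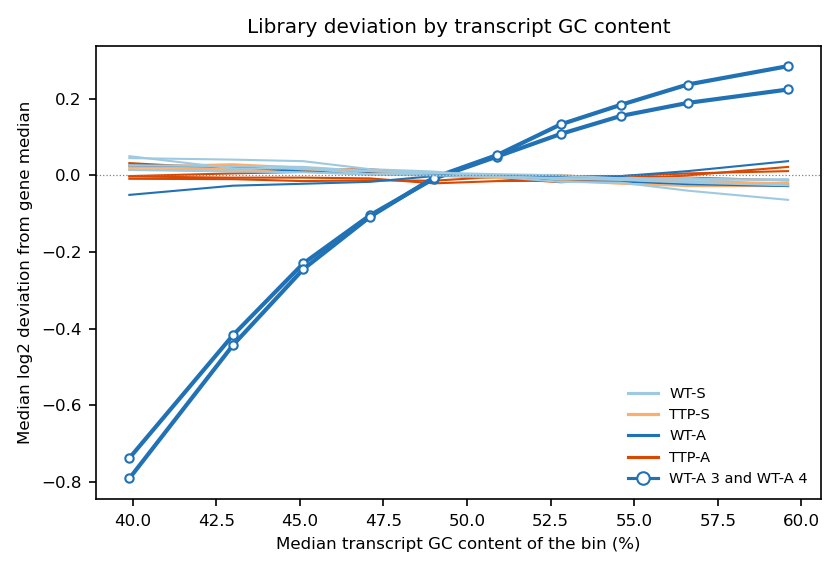
For each library, the median log2 deviation of its genes from their medians over libraries (y axis) in 10 bins of genes ordered by transcript GC content (x axis, median GC of the bin in percent), 1 line a library, coloured by group. The 2 lines with open circles, WT-A 3 and WT-A 4, run from −0.738 and −0.791 in the lowest bin to 0.224 and 0.285 in the highest, and the other 14 lines stay near 0.

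Zfp36 itself was higher in every TTPΔARE library, which checks the labels. It stood at 131, 129, 110 and 120 CPM in TTP-A 1 to 4 and at 63.2, 63.7, 72.5 and 88.6 CPM in WT-A 1 to 4. The groups did not overlap, and WT-A 4 was the highest wild-type library. The log2 difference was 0.77 ± 0.097 (SE, adjusted p = 0.00159), a 1.71-fold higher level, and 0.95 ± 0.081 (adjusted p = 0.000152) in the 14-library fit. An exact two-sided permutation test of log2 CPM gave p = 0.0286, the smallest that 70 arrangements of 4 against 4 allow. The difference in the S groups was of similar size (0.98 ± 0.097), and the interaction of genotype with group was −0.21 ± 0.136 (adjusted p = 0.455). Of the 15 tested genes for AU-rich element binding and deadenylation, Zfp36 alone was called in the 16-library fit, in which 5.17% of all genes were.

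In the 16-library fit, 796 genes were called, 5.17% of those tested: 442 were higher (2.87%) and 354 lower (2.3%) in TTP-A. In the 14-library fit, 279 were called (1.81%), 196 higher (1.27%) and 83 lower (0.539%). The calls shared in direction numbered 147 (0.955%), 99 higher (0.643%) and 48 lower (0.312%). With GC offsets, 682 genes were called (4.43%), 338 higher (2.2%) and 344 lower (2.24%), and 112 genes (0.728%) were called in all 3 fits. The counts moved with every single library: the 16-library fit called 413, 267, 100 and 216 genes without TTP-A 1, 2, 3 or 4, and 3205, 1605, 90 and 506 without WT-A 1, 2, 3 or 4. The 14-library fit called 464, 187, 100 and 146 genes without TTP-A 1, 2, 3 or 4, and 15 and 36 without WT-A 1 or 2. A fit on the 8 libraries alone, which has fewer residual degrees of freedom and takes no spread from the S libraries, called 1 gene, a rise. In it 73 of 106 named genes lost their 16-library call. Its adjusted p was 0.0539 for Aldh1l2 and Nrn1, 0.0565 for Slc27a2, 0.0992 for Krt7 and 0.161 for Klb. The 16-library SE and p-values below use a dispersion shared with the S libraries. "Leave-one-out fits" below are the 8 of the 16-library fit.

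The 10 largest rises called in both fits, among genes picked for no overlap between the groups, included Slc27a2, Aldh1l2, Creg2 and Klb. Slc27a2 (chr2:126552407-126588243, plus strand) encodes a very long-chain acyl-CoA synthetase that also serves fatty acid uptake. It stood at 4.81, 6.09, 5.47 and 4.77 CPM in TTP-A 1 to 4 and at 1.26, 0.931, 1.91 and 2.35 CPM in WT-A 1 to 4. The log2 difference was 1.72 ± 0.31 (adjusted p = 0.0123), and 2.26 ± 0.373 (adjusted p = 0.0115) without the GC pair. Aldh1l2 (chr10:83487450-83534140, minus strand), a mitochondrial folate enzyme of one-carbon metabolism, stood at 36.1, 34.8, 44.7 and 34.9 CPM against 15.1, 13.9, 16.1 and 20.7 CPM. The difference was 2.29-fold (log2 1.196 ± 0.149, adjusted p = 0.00159, and 0.00242 in the 14-library fit), and TTP-A 3 stood apart above the other 3 TTP-A libraries. Creg2 (chr1:39618406-39651474, minus strand), a secreted glycoprotein, stood at 13.2, 17.4, 20.3 and 16.1 CPM against 6.03, 5.76, 6.51 and 9.09 CPM. Its log2 difference was 1.30 ± 0.159 (adjusted p = 0.00159), and WT-A 4 was again the wild-type library nearest to TTP-A. Klb (chr5:65348314-65384007, plus strand), the β-klotho coreceptor for endocrine fibroblast growth factors, stood at 1.77, 2.32, 1.87 and 2.08 CPM against 0.65, 0.724, 0.273 and 1.52 CPM (log2 1.36 ± 0.343, adjusted p = 0.0367). It was called in only 3 of 8 leave-one-out fits: the call was lost without any 1 of the TTP-A libraries or without WT-A 3 (highest adjusted p 0.0939).

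The other rises of this set included Nrn1, Kctd8, Myh7, Necab1 and Ogn. Nrn1 (chr13:36725361-36735131, minus strand), a neurite-growth protein anchored in the membrane, stood at 33.5, 34.4, 47.2 and 34.5 CPM against 18.2, 16.7, 12.4 and 15.2 CPM, a log2 difference of 1.26 ± 0.148 (adjusted p = 0.00144). Kctd8, an auxiliary subunit of GABA-B receptors, and Myh7, a slow-type myosin heavy chain, were low genes, at 1.04 to 1.35 and 2.41 to 3.48 CPM in TTP-A against 0.351 to 0.609 and 0.938 to 1.64 CPM in WT-A. Their adjusted p-values were 0.00946 and 0.0155, and Myh7 lost its call without TTP-A 3 (0.0544). Necab1, a calcium-binding protein, stood at 13.5 to 14.9 CPM in TTP-A against 4.29 to 7.69 CPM, and with GC offsets its adjusted p rose from 0.0124 to 0.0518. Ogn, a small leucine-rich matrix proteoglycan whose transcript has a GC content of 36.3%, moved with the GC pair. It stood at 97.4, 131, 119 and 108 CPM in TTP-A, at 73.4 and 75.1 CPM in WT-A 1 and 2, and at 34.5 and 41.5 CPM in WT-A 3 and 4. Its log2 difference of 1.02 ± 0.196 fell to 0.61 ± 0.114 in the 14-library fit and to 0.53 with GC offsets, with adjusted p-values of 0.0155, 0.0198 and 0.0137. Its call was lost without TTP-A 3 (0.0517).

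Erdr1 had the largest 16-library log2 difference of the named genes, and its identity is uncertain, since it lies in a repeated region of the sex chromosomes and reads from near copies cannot be assigned. It stood at 3.82, 4.2, 7.64 and 4.95 CPM in TTP-A and at 0.505, 0.207, 0.78 and 0.087 CPM in WT-A (log2 3.68 ± 0.385, adjusted p = 0.00045). In the S groups it stood at 8.52 to 12.7 CPM in TTP-S and 5.81 to 10.5 CPM in WT-S, so the 4 WT-A libraries were the low ones among the 16.

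**Figure D2:**
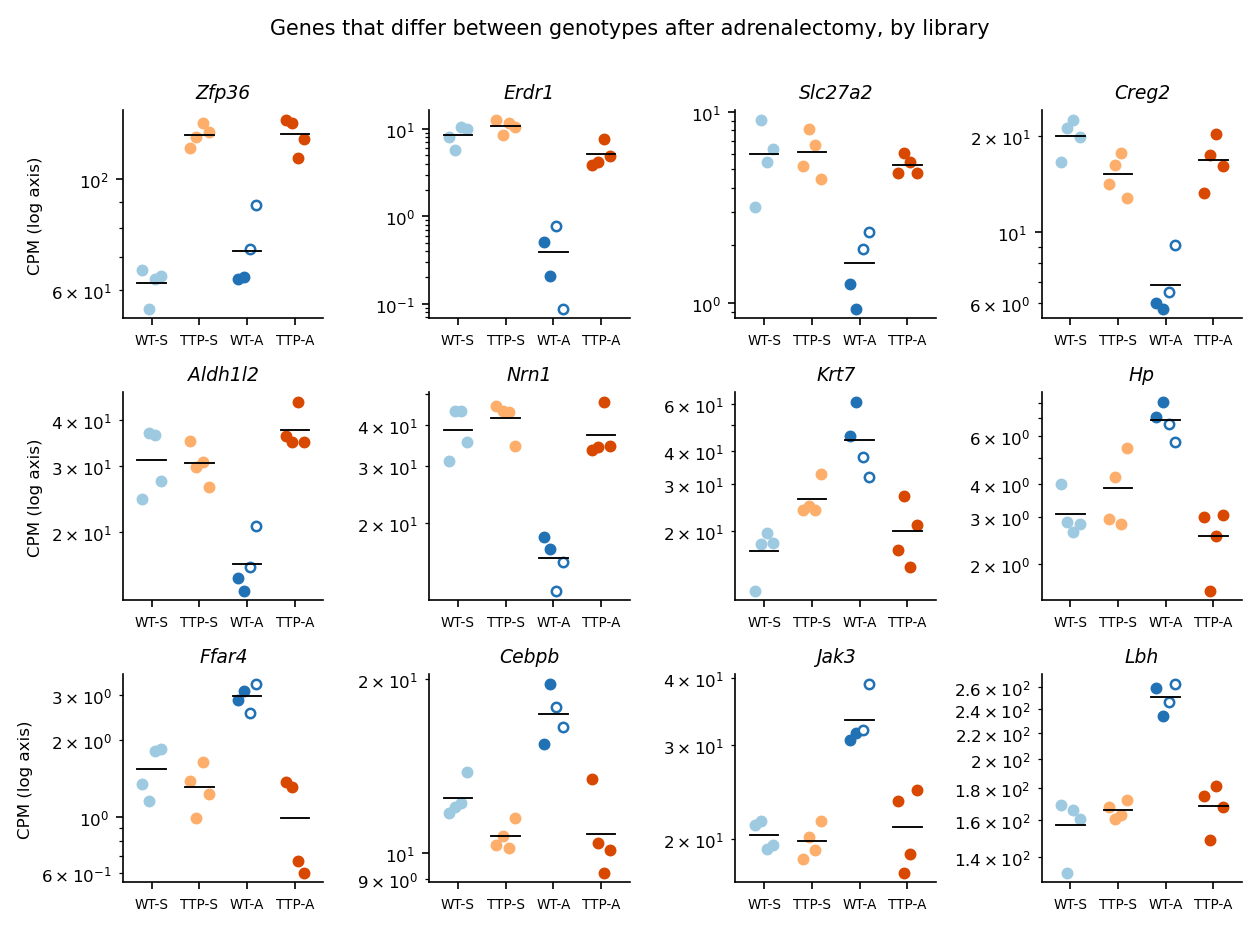
CPM on a log axis (y) of 12 genes in the 4 groups (x), 1 point a library, with a black line at the group mean; open circles mark WT-A 3 and WT-A 4. All genes but Zfp36 were picked for groups without overlap. Their 4 TTP-A points thus lie all above or all below the 4 WT-A points, with Lbh at 149 to 181 CPM against 234 to 263. Zfp36 stood at 110 to 131 CPM against 63.2 to 88.6.

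The 10 largest falls called in both fits, picked under the same rule of no overlap, included Krt7, Hp, Ffar4, Cebpb, Jak3 and Lbh. Krt7 (chr15:101411043-101430313, plus strand), a keratin of ducts and of single-layered epithelia, stood at 17, 27, 14.6 and 21.1 CPM in TTP-A and at 45.4, 61.2, 38 and 31.9 CPM in WT-A. Its log2 difference was −1.15 ± 0.214 (adjusted p = 0.0133), and −1.42 ± 0.214 (adjusted p = 0.00797) in the 14-library fit. The call was lost only without TTP-A 3 (0.0517). Hp (chr8:109575128-109579172, minus strand), haptoglobin, which binds free haemoglobin, stood at 3, 1.59, 2.55 and 3.06 CPM against 7.07, 8.07, 6.67 and 5.7 CPM (log2 −1.43 ± 0.228, adjusted p = 0.00795). Ffar4 (chr19:38097071-38114263, plus strand), a receptor for long-chain fatty acids, stood at 1.36, 1.3, 0.672 and 0.602 CPM against 2.85, 3.1, 2.54 and 3.3 CPM (log2 −1.58 ± 0.255, adjusted p = 0.00842). That the 2 groups were separate for these genes was fixed by the rule that picked them. Cebpb (chr2:167688915-167690418, plus strand), a transcription factor of acute-phase and inflammatory genes, stood at 13.4, 10.4, 9.22 and 10.1 CPM against 15.4, 19.6, 17.9 and 16.5 CPM (log2 −0.68 ± 0.107, adjusted p = 0.00786). Jak3 (chr8:71676296-71690575, plus strand), the kinase of the common γ-chain cytokine receptors, stood at 17.3 to 24.7 CPM against 30.7 to 39 CPM (adjusted p = 0.00931). Lbh (chr17:72918305-72941947, plus strand), a transcriptional cofactor, stood at 175, 149, 181 and 168 CPM against 259, 234, 246 and 263 CPM (log2 −0.58 ± 0.076, adjusted p = 0.00193).

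The remaining falls of this set were smaller in size or in stability. Gch1, the entry enzyme of tetrahydrobiopterin synthesis, stood at 12.3 to 15 CPM against 18.8 to 20.3 CPM (adjusted p = 0.0115). Pirt, a regulator of heat-sensing and pain-sensing channels, stood at 8.69 to 11.7 CPM against 13.8 to 17.7 CPM (adjusted p = 0.0259), and lost its call without TTP-A 3 or TTP-A 4 (highest 0.083). Cela1, an elastase of exocrine pancreas that other epithelia also express, stood at 15.1 to 19.3 CPM against 22.6 to 27.3 CPM (adjusted p = 0.0149), and lost its call without TTP-A 3 or WT-A 3 (highest 0.0567). Tns4, a tensin of cell-matrix adhesions, stood at 3.07 to 5.31 CPM against 5.58 to 11 CPM (adjusted p = 0.0357), and kept its call in only 2 of 8 leave-one-out fits: without TTP-A 1 or WT-A 1 it was called, and without any other library it was not (highest 0.108). With GC offsets, 10 of these 10 falls and 9 of the 10 rises stayed called.

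Which genes were named also depended on the GC pair. Of the genes called in 16 but not in 14 libraries, the largest rises were Blm, Cyp2b10, Scn9a and Gabra4, and the largest falls Slc9a3, Ccl24, Hamp and Kcnu1; all 8 stayed called with GC offsets, and their 14-library adjusted p-values ran from 0.0508 (Hamp) to 0.126 (Scn9a). Blm, a helicase of homologous recombination, stood at 16.9, 41.8, 30.5 and 22.2 CPM in TTP-A and at 9.28, 7.66, 6.9 and 6.57 CPM in WT-A. Slc9a3, a sodium-proton exchanger of the apical membrane, stood at 31.4, 7.92, 2.98 and 14.8 CPM against 82.5, 59.6, 66.4 and 132 CPM. Separate groups were required of these 8 genes too, and for Slc9a3 the TTP-A values spread over more than 1 order of magnitude. Ccl24, a chemokine that attracts eosinophils, stood at 2, 0.338, 1.06 and 1.48 CPM against 4.62, 4.1, 8.54 and 2.87 CPM (log2 −2.04 ± 0.474, adjusted p = 0.0289). Hamp, which encodes the iron-regulating hormone hepcidin, stood at 0.139 to 0.954 CPM against 1.13 to 2.31 CPM (adjusted p = 0.0361). The call was lost for Slc9a3 without WT-A 4, and for Slc9a3, Ccl24 and Hamp without TTP-A 2, 3 or 4 or WT-A 3 (highest 0.0927, 0.105 and 0.0918). Blm and Cyp2b10, a steroid- and drug-metabolising cytochrome, kept their calls in 8 of 8 leave-one-out fits. Scn9a lost it without TTP-A 3, TTP-A 4 or WT-A 3, Gabra4 without TTP-A 3 or WT-A 3, and Kcnu1 without any library but TTP-A 2 and WT-A 1 (highest 0.123).

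Of the genes called only when the GC pair was left out, Cbs, Ahsg, Adprhl1 and Pappa2 rose most and Sftpd, Cyp26b1, Kcne3 and F5 fell most. Cbs, which makes cystathionine from homocysteine and serine, stood at 9.9, 12.5, 15.6 and 13.2 CPM in TTP-A and at 4.04, 4.66, 6.09 and 12.8 CPM in WT-A. WT-A 4 alone of the WT-A libraries lay within the TTP-A range, and the log2 difference moved from 0.90 ± 0.283 (adjusted p = 0.0685) to 1.55 ± 0.218 (adjusted p = 0.00449) without the pair. Cyp26b1, which degrades retinoic acid, stood at 0.676 to 1.14 CPM in TTP-A and at 1.8, 4.24, 2.26 and 0.739 CPM in WT-A, with WT-A 4 once more among the TTP-A values. For 5 of the 8 genes (Cbs, Adprhl1, Cyp26b1, Kcne3 and F5), leaving out WT-A 4 alone brought a call; for Cyp26b1 leaving out WT-A 1 did too. With GC offsets, 1 of the 8 (Adprhl1, adjusted p = 0.0366) was called.

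**Figure D3:**
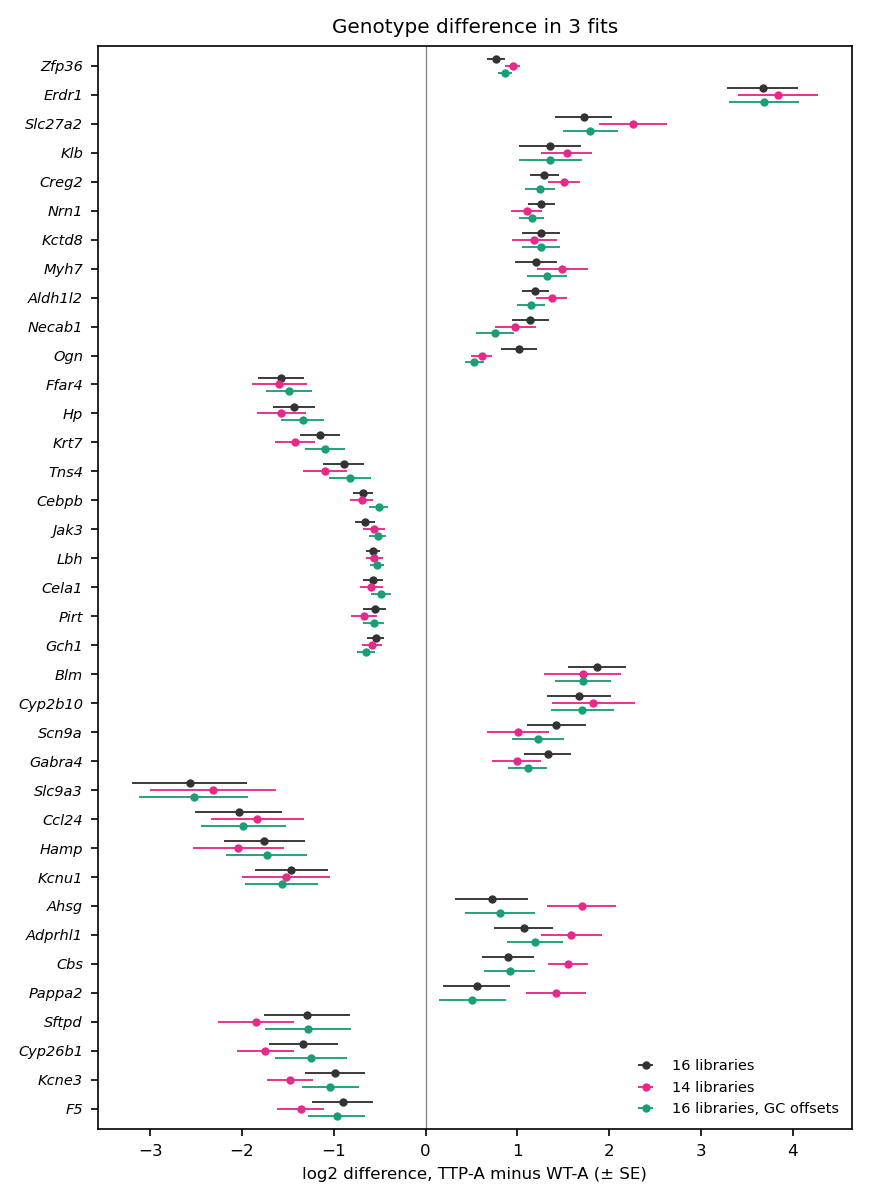
Log2 difference TTP-A minus WT-A with its SE (x axis) of Zfp36 and the 36 genes named by size of change (y axis) in the 16-library fit (black), the 14-library fit (pink) and the 16-library fit with GC offsets (green). Each gene keeps its direction in the 3 fits. For genes named as called in both fits, the choice fixed this in the 16- and 14-library fits. Ogn moves from 1.02 to 0.61 and 0.53, and Cbs from 0.90 to 1.55 in the 14-library fit.

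Chief cells make pepsinogen and carry a large secretory apparatus under the transcription factor MIST1, the product of Bhlha15. Counts of list members called, here and in all lists below, stand beside 2.87% of all genes called higher and 2.3% lower in 16 libraries, and 1.27% and 0.539% in 14. Of 5 chief cell markers tested, 2 were higher in the 16-library fit (Chia1 and Bhlha15) and 3 in the 14-library fit (Pgc, Gif and Bhlha15), with a median log2 difference of 0.78 and 1.09, against −0.0033 and −0.0055 over all genes. The rise was not shared by the whole list: in both fits 4 of the 5, those described below, lay above 0 and the other 1 below 0. Bhlha15 stood at 61.4, 55.3, 77.1 and 61.7 CPM in TTP-A and at 27, 30.4, 36.4 and 48.7 CPM in WT-A. The groups were separate, with a log2 difference of 0.84 ± 0.161 (adjusted p = 0.015; 14-library 1.15 ± 0.149, adjusted p = 0.00277), and the call was lost without TTP-A 3 (0.0604). In the S groups Bhlha15 stood at 35.8 to 48 and 38 to 51.7 CPM, below every TTP-A library. Pgc, pepsinogen C, stood at 89100, 115000, 137000 and 106000 CPM against 51600, 46400, 63500 and 99300 CPM, so that WT-A 4 lay inside the TTP-A range. Its log2 difference was 0.78 ± 0.225 (adjusted p = 0.0544) and was called without WT-A 4, with GC offsets (0.0292) and in the 14-library fit (1.19 ± 0.221, adjusted p = 0.0201). Gif, gastric intrinsic factor, which mouse chief cells make, followed the same order: 2480, 3300, 3550 and 2730 CPM against 1810, 1760, 2220 and 3160 CPM, with adjusted p = 0.104 in 16 libraries and 0.0126 in 14. Chia1, an acidic chitinase, stood at 2030, 1690, 3290 and 1910 CPM against 1390, 699, 1100 and 1010 CPM (adjusted p = 0.027), and missed the threshold in the 14-library fit (0.0926) and without TTP-A 3 or WT-A 3. Lipf, gastric lipase, had no count in any of the 8 libraries, which allows a level of up to 0.145 CPM (3 counts, counting error only). In bulk tissue, fewer cells of a type and less RNA per cell cannot be told apart, here and in all results below.

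A further 6 genes, Ero1lb, Nucb2, Slc38a5, Derl3, Furin and Pycr1, were chosen after their values were seen. Ero1lb, an oxidase that forms disulfide bonds in the endoplasmic reticulum, stood at 48.5, 54.5, 60.9 and 48.3 CPM in TTP-A and at 32.2, 31.4, 28.2 and 31.2 CPM in WT-A. Its log2 difference of 0.79 ± 0.078 (adjusted p = 0.000444; 14-library 0.74 ± 0.091, adjusted p = 0.00242) was called in 8 of 8 leave-one-out fits. Nucb2, the precursor of nesfatin, stood at 49.4, 66, 69.2 and 55.4 CPM against 38.1, 37.4, 28.3 and 35.3 CPM (adjusted p = 0.00287), also called in 8 of 8. Slc38a5, a glutamine transporter, stood at 11.5 to 16.1 CPM against 6.32 to 9.83 CPM (adjusted p = 0.00786), again in 8 of 8. Derl3, which serves the degradation of misfolded proteins, rose by a log2 difference of 0.99 ± 0.211 (adjusted p = 0.0232), with a call lost without TTP-A 2, TTP-A 3 or WT-A 3 (highest 0.0803). Furin, a proprotein convertase, stood at 1790, 2250, 2790 and 2220 CPM against 795, 982, 1230 and 2650 CPM. WT-A 4 was above 3 of the 4 TTP-A libraries for Furin, and the adjusted p moved from 0.131 in 16 libraries to 0.00252 in 14. Pycr1, a proline-synthesis enzyme, moved likewise from 0.0874 to 0.00449, and was called with GC offsets (0.037). In the general folding list, of 15 tested genes 1 (Canx, calnexin, adjusted p = 0.0493) was called in 16 libraries and 0 by edgeR in 14 (2 at an unadjusted p under 0.05, 1 by DESeq2 and 0 by voom), with medians of 0.12 and 0.09. Canx stood at 204 and 208 CPM in the GC pair against 279 to 339 CPM in the other 6 libraries. Canx was called in only 2 of 8 leave-one-out fits, those without WT-A 1 or WT-A 2, and not with GC offsets (0.123).

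Parietal cell genes had small differences, all upward where called. Of 12 tested, 3 were higher in 16 libraries (Kcne2, Hrh2 and Esrrg), 6 in 14 libraries (Atp4b, Hrh2, Clic6, Esrrg, Slc26a9 and Slc4a2; all genes 2.87% and 1.27%), and no member was called lower, with medians of 0.32 and 0.37. Atp4a, the catalytic subunit of the proton pump, stood at 10800, 12600, 12500 and 11300 CPM in TTP-A and at 10300, 9840, 11200 and 14300 CPM in WT-A (log2 0.05 ± 0.104, adjusted p = 0.803). The groups overlapped, and the highest of the 8 was WT-A 4. Its sign turned to below 0 without WT-A 1 or WT-A 2, and the 14-library value was 0.22 ± 0.091 (adjusted p = 0.194). Hrh2, the histamine receptor of parietal cells, stood at 82.2, 97.6, 87.4 and 87.9 CPM against 66.5, 72.4, 79 and 77.9 CPM, a log2 difference of 0.26 ± 0.073 (adjusted p = 0.0478; 14-library 0.35, adjusted p = 0.0402) called in 1 of 8 leave-one-out fits, that without WT-A 1. Esrrg, a nuclear receptor of parietal cell metabolism, stood at 329 to 381 CPM against 195 to 285 CPM (log2 0.49 ± 0.093, adjusted p = 0.0155; 14-library 0.33, 0.0332). With GC offsets Esrrg stood at 0.24 (adjusted p = 0.0797), and it lost its call without TTP-A 3 (0.0617). Kcne2, a potassium channel subunit, was not called with GC offsets (0.122) or without TTP-A 2, 3 or 4 or WT-A 3 (highest 0.121), and Slc26a9, an anion transporter, then was (0.0397). Slc4a2, an anion exchanger, had a log2 difference of −0.03 in 16 libraries and 0.26 in 14.

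Of 12 tested SPEM and mucous neck genes, 2 were lower in 16 libraries (Gpx2 and Dmbt1), 1 in 14 (Dmbt1; all genes 2.3% and 0.539%) and none was called higher, with medians of −0.37 and −0.44. Dmbt1, a scavenger-receptor glycoprotein of mucosal secretions, stood at 157, 249, 119 and 122 CPM in TTP-A and at 455, 370, 306 and 234 CPM in WT-A, with TTP-A 2 above WT-A 4. Its log2 difference was −1.08 ± 0.231 (adjusted p = 0.0232; 14-library −1.35 ± 0.241, adjusted p = 0.0157), and its call was lost without TTP-A 3, TTP-A 4 or WT-A 3 (highest 0.0798). Gpx2, an epithelial glutathione peroxidase, stood at 185, 113, 151 and 163 CPM against 351, 257, 295 and 305 CPM (adjusted p = 0.0176; 14-library 0.0508), and lost its call without TTP-A 3 or WT-A 3 (highest 0.0617). The 2 defining genes of the lineage were not called. Muc6, the mucin of neck cells, stood at 3280, 617, 1170 and 1960 CPM in TTP-A and at 1560, 1900, 1740 and 1680 CPM in WT-A, so TTP-A held both the highest and the lowest library (log2 0.03 ± 0.479, adjusted p = 0.973). Tff2, which encodes spasmolytic polypeptide, stood at 448 to 613 CPM against 353 to 666 CPM (log2 −0.04 ± 0.165, adjusted p = 0.887; 14-library 0.24 ± 0.17, adjusted p = 0.466).

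**Figure D4:**
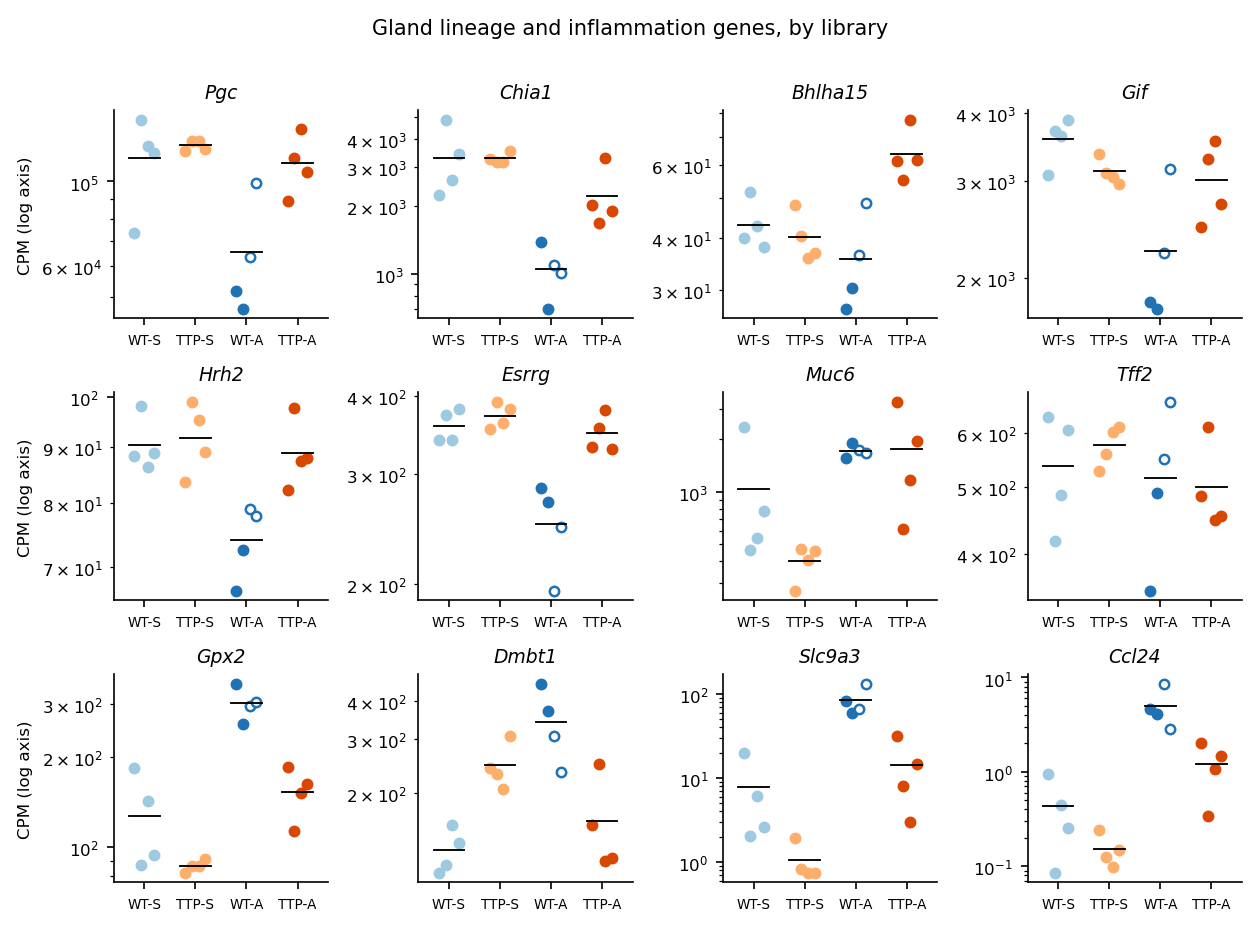
CPM on a log axis (y) of 12 gland and inflammation genes in the 4 groups (x), 1 point a library, with a black line at the group mean; open circles mark WT-A 3 and WT-A 4. For Bhlha15, Gpx2, Slc9a3 and Ccl24 the TTP-A and WT-A points are separate, which the choice of genes required of Slc9a3 and Ccl24. For Pgc and Gif the upper open circle of WT-A (99300 and 3160 CPM) lies among the TTP-A points. For Muc6 the TTP-A points run from 617 to 3280 CPM.

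Among surface mucous cell markers, 0 of 9 were called by edgeR in either fit (2 and 1 at an unadjusted p under 0.05, 0 by DESeq2 or limma voom). With GC offsets 1, Vsig1, was called lower (adjusted p = 0.0406, against 0.816 without them). Muc5ac stood at 2520 to 5300 CPM in TTP-A and 3210 to 4060 CPM in WT-A. Of 11 endocrine markers, 1 was higher in both fits: Slc18a2, the vesicular monoamine transporter of histamine-storing cells, at 28.3, 31.5, 35.5 and 30.5 CPM against 21.3, 19.1, 15.6 and 20.2 CPM (log2 0.72 ± 0.123, adjusted p = 0.0111; 14-library 0.034). Slc18a2 was called in 8 of 8 leave-one-out fits. All 11 markers lay above 0 in 16 libraries and 10 in 14, with medians of 0.21 and 0.52. At an unadjusted p under 0.05 there were 2 and 8, while DESeq2 called 1 and 5 and voom 2 and 1. Of 9 tuft cell markers 0 were called by edgeR, DESeq2 or voom (2 and 0 at an unadjusted p under 0.05), with medians of −0.29 and −0.32. Of 6 simple keratins, 3 were lower in 16 libraries (Krt7, Krt8 and Krt18) and 1 higher (Krt23); in 14 libraries Krt7 was lower and Krt23 higher (all genes called either way 5.17% and 1.81%). Krt8 and Krt18, partners in the filament of simple epithelia, stood at 1580 to 1790 and 583 to 664 CPM in TTP-A against 1890 to 2350 and 714 to 844 CPM in WT-A. Their groups were separate, with 14-library adjusted p-values of 0.152 and 0.101, and of 0.0869 and 0.0679 with GC offsets. Krt8 lost its call without TTP-A 1, 3 or 4 or WT-A 3 or 4 (highest 0.1), and Krt18 and Krt23 without TTP-A 2, 3 or 4 or WT-A 3 (highest 0.0821 and 0.122).

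Messages reported as TTP targets were called in both directions. Of the 15 on the list, 7 passed the count filter; in 16 libraries Ier3 and Lif were lower and Ptgs2 higher (all genes 5.17%), and in 14 libraries edgeR called 0 of 7 (3 at an unadjusted p under 0.05, 2 by DESeq2 and 1 by voom). Below 0 lay 5 of the 7 in 16 libraries and 6 of 7 in 14, with medians of −0.52 and −0.40. Between the S groups the median of these genes was similar, at −0.5 in the 16-library fit. Ptgs2, cyclooxygenase 2, the inducible enzyme of prostaglandin synthesis, stood at 5.81, 6.96, 5.04 and 5.83 CPM in TTP-A and at 2.71, 3.97, 2.5 and 3.04 CPM in WT-A. All 4 TTP-A libraries were above all WT-A libraries, by a log2 difference of 0.95 ± 0.216 (adjusted p = 0.0271). The adjusted p was 0.114 in the 14-library fit and 0.141 with GC offsets, and the call was lost without TTP-A 2, 3 or 4 or WT-A 3. Lif, a cytokine of the interleukin-6 family, stood at 1.41, 1.16, 0.912 and 1.39 CPM against 2.27, 1.66, 2.15 and 2.26 CPM (log2 −0.77 ± 0.212, adjusted p = 0.0477), and Ier3, an early-response gene, at 14.6 to 17.6 CPM against 19.8 to 20.8 CPM (adjusted p = 0.0297). Both groups were separate for these genes, and both calls were absent from the 14-library fit (0.17 and 0.062) and with GC offsets (0.0683 and 0.0827). Lif was called in 2 of 8 leave-one-out fits (without WT-A 1 or WT-A 2) and Ier3 in 4 (also without TTP-A 1 or WT-A 4). The classic target Tnf stood at 0.454, 0.387, 0.624 and 0.232 CPM against 0.541, 0.483, 0.936 and 0.478 CPM (log2 −0.52 ± 0.352, adjusted p = 0.343). Il1b stood at 0.672 to 1.36 CPM against 1.05 to 1.66 CPM (adjusted p = 0.143). Tnf had 5 to 13 counts in the TTP-A and 11 to 24 in the WT-A libraries. Its log2 difference ran from −0.761 to −0.241 over the leave-one-out fits, and it was called in 0 of 8.

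The nonamer was counted over the 14478 tested genes with an annotated 3′UTR (1328 hold it, 9.17%; sense strand, overlapping matches counted once a gene). Among genes called higher in 16 libraries 64 of 426 held it (15%), and among those called lower 28 of 348 (8.05%). In the 14-library fit the order was the opposite, 15 of 189 (7.94%) among genes called higher and 13 of 83 (15.7%) among those called lower, and with GC offsets the shares were 11.7% and 11.9%. GC content moved beside this: the median transcript GC was 44.6% for genes called higher and 54.8% for those called lower in 16 libraries, 50.6% and 50.3% in 14, and 50% over all genes tested. The median 3′UTR length, 1167 bases over all genes tested, differed too. For genes called higher and lower it was 2186 and 622.5 bases in 16 libraries, 1129 and 855 in 14, and 1782 and 852 with GC offsets. A longer 3′UTR has more places for a match, and the shares were not adjusted for length. The median log2 difference of the 1328 genes was 0.09 in the 16-library fit and 0.01 in the 14-library fit. A match is a run of letters, not a site of binding. Of the genes named by size of change with a 3′UTR (36 with Zfp36), 2 held the nonamer: Krt7 in 2 copies and Slc9a3 once. The Slc9a3 window and the first of Krt7 are printed above, and the second of Krt7 lies at chr15:101430050-101430078. Of the 15 reported TTP targets, 8 held the nonamer.

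Immune and inflammatory lists are read against 5.17% of all genes called in 16 libraries and 1.81% in 14; with 2 to 18 genes a list, 0 or 1 call is not read as a result about the list. Of 18 chemokine ligands tested, Ccl24 was lower in 16 libraries and Cxcl12 higher in 14, with medians of −0.32 and −0.23. Cxcl12, a stromal chemokine, stood at 71.8, 85.8, 82.4 and 75.6 CPM in TTP-A and at 51.2, 63, 65.2 and 77.4 CPM in WT-A, with WT-A 4 inside the TTP-A range (adjusted p = 0.0895; 14-library 0.0321). Macrophage, antigen presentation, interferon, mast cell, neutrophil and eosinophil lists gave 0 calls by edgeR in both fits, of 12, 11, 14, 9, 3 and 2 genes tested. At an unadjusted p under 0.05 the 16-library counts were 1, 1, 1, 1, 1 and 0; DESeq2 called 1, 0, 1, 1, 1 and 0, and voom 0 of each. The T cell list gave 1 call, Cd4, at 5.33 to 6.77 CPM against 2.63 to 4.84 CPM, in 14 libraries (adjusted p = 0.0358) and with GC offsets (0.0434), but not in the 16-library fit (0.0704). Of 8 mucosal antimicrobial genes tested, Dmbt1 was the only call, and the median difference of the list was −1.24 and −1.59, with groups that overlapped: their summed level was 447 to 1780 CPM in TTP-A and 766 to 1870 CPM in WT-A. Spp1, osteopontin, chosen after its values were seen, stood at 127, 51.7, 45.6 and 90.3 CPM against 307, 299, 144 and 102 CPM. Its log2 difference was −1.44 ± 0.365 (adjusted p = 0.0372; 14-library −1.95 ± 0.324, adjusted p = 0.0115), and the call was lost without TTP-A 2, 3 or 4 or WT-A 3 (highest 0.11). Il13ra1, a subunit of the interleukin-13 receptor, turned its sign with the GC pair: it stood at 70.3 to 74.5 CPM in TTP-A, at 92.9 and 83.9 CPM in WT-A 1 and 2, and at 31.2 and 29.7 CPM in WT-A 3 and 4. Its log2 difference was 0.29 ± 0.27 (adjusted p = 0.49) in 16 libraries and −0.28 ± 0.05 (adjusted p = 0.0156) in 14.

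Glucocorticoid-responsive genes had a median difference near 0. Of 15 tested, Cdkn1a, a cell-cycle inhibitor, was lower in both fits and no other was called, with medians of 0.05 and 0.05. Cdkn1a stood at 128, 138, 116 and 131 CPM against 159, 184, 163 and 152 CPM (log2 −0.36 ± 0.082, adjusted p = 0.0279; 14-library 0.0405; GC offsets 0.0843), with the call lost without TTP-A 1, 3 or 4 or WT-A 3 (highest 0.0932). Per1, Fkbp5 and Tsc22d3, classic targets of the glucocorticoid receptor, stood at 34.4 to 37.5, 39.4 to 42.4 and 48.6 to 59.3 CPM in TTP-A and at 25.5 to 35, 34.9 to 41.1 and 43.6 to 48.1 CPM in WT-A. In the 8 S libraries they stood at 78.1 to 133, 51.8 to 134 and 78 to 109 CPM. None of the 3 was called between genotypes after adrenalectomy (adjusted p 0.155 to 0.717). Nr3c1, the glucocorticoid receptor, was called higher in 16 libraries (adjusted p = 0.0358) but stood at 76.9 to 87.1 CPM in TTP-A, 71.7 and 68.5 CPM in WT-A 1 and 2 and 52.9 and 50.4 CPM in the GC pair, with a 14-library adjusted p of 0.153 and of 0.131 with GC offsets. It was called in 2 of 8 leave-one-out fits, without WT-A 1 or WT-A 2. Of 15 clock genes 1 was called, in both fits: Hlf, a PAR-domain transcription factor under clock control, at 23.7, 23.6, 22.7 and 23.8 CPM against 14.2, 16.9, 15.4 and 12.2 CPM (log2 0.67 ± 0.116, adjusted p = 0.0111; 14-library 0.0366), in 8 of 8 leave-one-out fits. Of 12 immediate early genes 0 were called by edgeR in either fit (2 and 1 at an unadjusted p under 0.05, 0 by DESeq2 or voom).

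Among growth factors, 2 ligands rose in both fits. Egf, epidermal growth factor, stood at 26.1, 32.7, 32.1 and 26.9 CPM in TTP-A and at 14.3, 12.1, 14.4 and 19.6 CPM in WT-A (log2 0.97 ± 0.181, adjusted p = 0.0137; 14-library 1.16 ± 0.21, 0.0178; GC offsets 0.0123). Nrg1, neuregulin 1, a ligand of ERBB3 and ERBB4, stood at 10.1, 7.44, 11.1 and 7.08 CPM against 3.83, 4.14, 5.03 and 6.09 CPM (log2 0.91 ± 0.197, adjusted p = 0.0232; 14-library 0.0241; GC offsets 0.133). Both were separate between the groups, and both lost the call without TTP-A 3 or WT-A 3 (highest 0.0517 for Egf and 0.0821 for Nrg1). The receptors Erbb2 and Erbb3 were lower in 16 libraries only, at 90.3 to 105 and 117 to 142 CPM against 108 to 121 and 157 to 178 CPM (14-library adjusted p 0.145 and 0.109), and Erbb2 was not called with GC offsets (0.154). Erbb2 lost its call without TTP-A 1, 3 or 4 or WT-A 3 or 4 (highest 0.107), and Erbb3 without TTP-A 3, TTP-A 4 or WT-A 3 (highest 0.0934). Of 10 tested members of this pathway 2 were thus higher and 2 lower in 16 libraries (all genes 2.87% and 2.3%), with a median of −0.01.

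Of 18 fatty acid genes, 3 were higher in 16 libraries (Slc27a2, Cd36 and Ppargc1a) and 2 in 14 (Slc27a2 and Acsl1; all genes 2.87% and 1.27%), with medians of 0.16 and 0.06. Cd36, a fatty acid receptor, stood at 136, 175, 162 and 139 CPM in TTP-A and at 109, 99, 74.9 and 84.8 CPM in WT-A (adjusted p = 0.015; 14-library 0.0759; GC offsets 0.281), and lost its call without TTP-A 3 or WT-A 3. Ppargc1a was not called with GC offsets (0.134) or without TTP-A 3, WT-A 3 or WT-A 4 (highest 0.105). Of 12 serine, one-carbon and ATF4 target genes, Asns was higher in both fits, Phgdh higher in 14 and with GC offsets (0.0334), and Atf5 lower in 16 but not with GC offsets (0.146) or without TTP-A 2, 3 or 4 or WT-A 3 or 4 (highest 0.149). Asns, asparagine synthetase, stood at 145, 177, 199 and 165 CPM against 129, 110, 107 and 138 CPM (adjusted p = 0.0193; 14-library 0.0352), and lost its call without TTP-A 3 or WT-A 3 (highest 0.0709). Of 16 respiratory chain subunits, 1 (Ndufs1) was called in 16 libraries (GC offsets 0.101; lost without TTP-A 2, TTP-A 3 or WT-A 3, highest 0.0712) and 0 by edgeR in 14 (12 at an unadjusted p under 0.05, 6 by DESeq2 and 0 by voom). Of 14 iron genes, Tfrc was called higher and Hamp and Smad6 lower in 16 libraries (all genes 5.17%), and edgeR called 0 in 14 (5 at an unadjusted p under 0.05, 2 by DESeq2 and 1 by voom). Smad6, an inhibitor of BMP signalling, stood at 34.8 to 37 CPM against 41.1 to 44.6 CPM (adjusted p = 0.0432; 14-library 0.119; GC offsets 0.394), and was called in 2 of 8 leave-one-out fits (those without WT-A 1 or WT-A 2). Tfrc, the transferrin receptor, stood at 121, 160, 166 and 160 CPM against 86.8, 90.2, 43.9 and 58.8 CPM (log2 1.12 ± 0.233, adjusted p = 0.0211; 14-library 0.78 ± 0.233, adjusted p = 0.0929). Its values were lowest in the GC pair, and its call was lost without TTP-A 3 or WT-A 3 (highest 0.0671).

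Of the proliferation genes, all 11 tested had a log2 difference below 0 in both fits, with medians of −0.27 and −0.30, and 1, the mitotic kinase Aurka, was called, in 16 libraries only (5.5, 7.68, 7.68 and 6.25 CPM against 8.91, 8.83, 9.25 and 10.4 CPM, adjusted p = 0.0474; 14-library 0.172; GC offsets 0.0664). Aurka was called in 2 of 8 leave-one-out fits, those without WT-A 1 or WT-A 2. With GC offsets 10 of the 11 lay below 0. Of 17 replication and repair genes Blm was the only call in 16 libraries, a share near the 5.17% over all genes.

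Markers of other tissue layers gave the following levels. All 8 smooth muscle markers were detected in each library, and their summed level was 6570 to 7850 CPM in TTP-A against 8120 to 9840 CPM in WT-A, without overlap. Of them Des, Cnn1, Tagln and Actg2 were lower in 16 libraries (all genes 2.3%), and 0 of 8 by edgeR in 14 (4 at an unadjusted p under 0.05, 0 by DESeq2 or voom). With GC offsets Cnn1 alone was called, and Des, Tagln and Actg2 stood at adjusted p = 0.0756, 0.0852 and 0.0549. The medians were −0.31 and −0.25, and each of the 4 was called in 2 of 8 leave-one-out fits, those without WT-A 1 or WT-A 2. Squamous forestomach markers, which are foreign to the corpus, summed to 58.5, 58.8, 3.36 and 286 CPM in TTP-A and to 53.7, 1130, 633 and 66.9 CPM in WT-A. Of 11 such genes 0 were called by edgeR, DESeq2 or voom (0 in 16 and 5 in 14 libraries at an unadjusted p under 0.05), and WT-A 2 and WT-A 3 were the high libraries, with Krt5 at 209 and 56.9 CPM. Mast cell markers summed to 118 to 453 CPM against 170 to 613 CPM, lowest in TTP-A 2 and WT-A 4. Chief cell markers summed to 93800 to 144000 CPM in TTP-A against 49000, 54900, 67000 and 104000 CPM in WT-A, and parietal markers to 18900 to 22500 CPM against 16800 to 25300 CPM. Of 5 erythroid markers 4 had no count. The part of these tissue levels in the results above was not tested.

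Of 20 collagen and basement membrane genes, edgeR called 0 in 16 libraries (2 at an unadjusted p under 0.05, 0 by DESeq2 and 3 by voom) and 3 in 14, all higher (Lama4, Lamb1 and Nid2). The medians were 0.001 and 0.21. Lamb1, a laminin chain, stood at 132 to 136 CPM in TTP-A, at 97.3 and 108 CPM in WT-A 1 and 2, and at 137 and 136 CPM in WT-A 3 and 4. The 14-library call (adjusted p = 0.0115) was thus a contrast with 2 libraries, and the GC pair lay at the TTP-A level. Sox2 and Sox21, transcription factors of the gastric epithelium, were lower in 14 libraries only, 2 of 14 tested in their list (adjusted p = 0.0275 and 0.0261). Sox2 stood at 12.8 to 16 CPM against 22.9, 19.8, 16.8 and 15.8 CPM, and Sox21 at 34.5 to 43.7 CPM against 52.6, 50.8, 45.9 and 37.4 CPM. Of 42 lists, 14 had no member called in either fit.

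**Figure D5:**
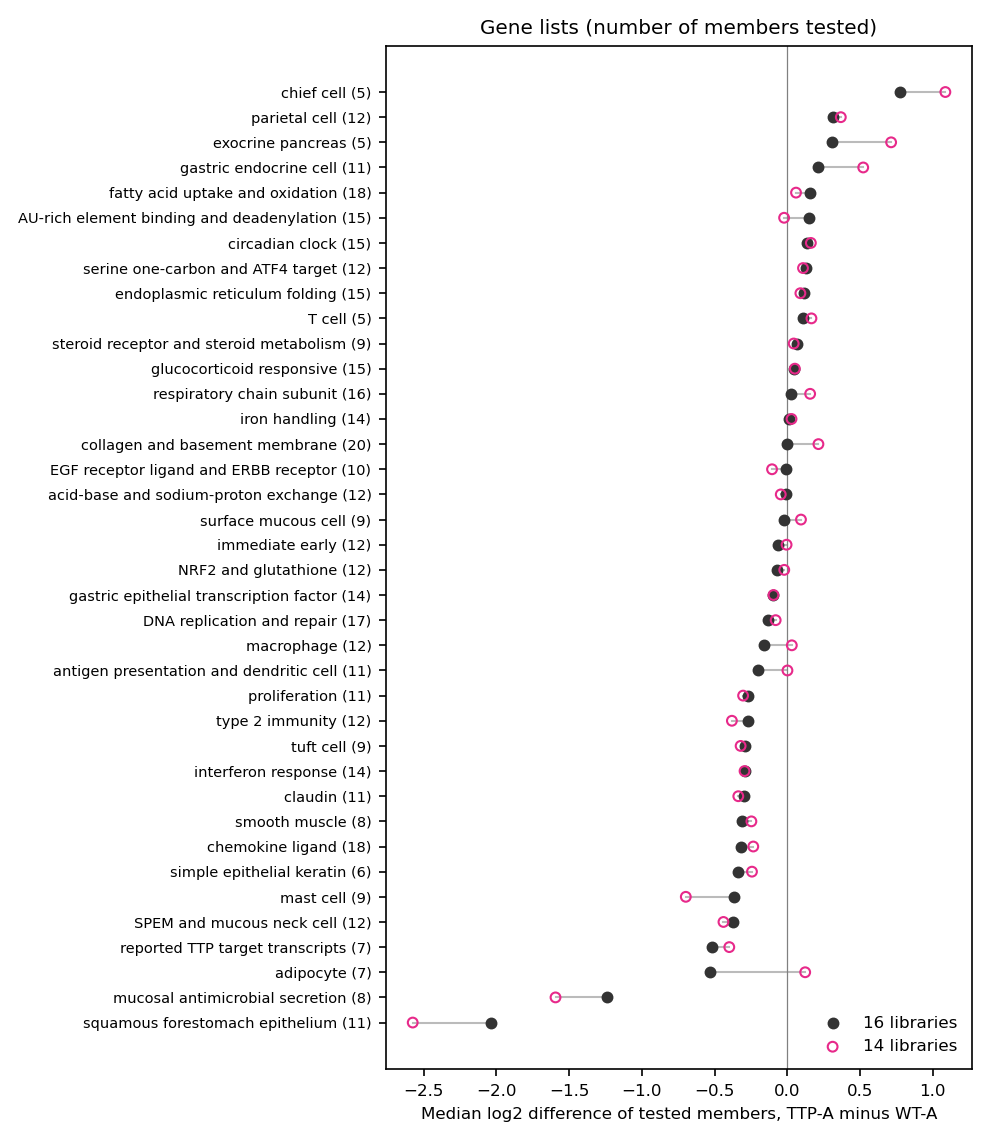
Median log2 difference TTP-A minus WT-A (x axis) of the tested members of each gene list with at least 5 of them (y axis, number tested in brackets), in the 16-library fit (filled) and the 14-library fit (open). The chief cell list lies highest (0.78 and 1.09) and the squamous forestomach list lowest (−2.04 and −2.58), and 5 lists change their sign between the fits, of which the adipocyte list moves most (−0.53 and 0.12).

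Whether a difference was particular to the adrenalectomy groups was tested by the interaction of genotype with group. In 16 libraries 9 genes were called (0.0585%), 5 with a more positive genotype difference after adrenalectomy (0.0325%: Erdr1, Creg2, Aldh1l2, Ero1lb and Nucb2) and 4 with a more negative one (0.026%: Dmbt1, Krt7, Eln and Lbh). In 14 libraries 44 were called (0.286%; 27 and 17), and 9 of the 9 were among them in the same direction. The interaction count was 4, 26, 3 and 4 genes without TTP-A 1, 2, 3 or 4, and 231, 6, 4 and 42 without WT-A 1, 2, 3 or 4. Erdr1, Creg2 and Ero1lb were called in 8 of 8 of these fits, and Nucb2 in 7 (not without TTP-A 3, adjusted p = 0.0501). The 4 negative interactions and that of Aldh1l2 lost their calls without TTP-A 1, 3 or 4 or WT-A 3, and those of Krt7, Dmbt1 and Aldh1l2 also without WT-A 2 (highest 0.097). Without TTP-A 2 the 26 calls were 8 positive and 18 negative. Creg2 stood at 12.8 to 17.6 CPM in TTP-S and 16.6 to 22.4 CPM in WT-S, so that WT-A, at 5.76 to 9.09 CPM, was below all 12 other libraries (interaction log2 1.69 ± 0.221, adjusted p = 0.00795; 14-library 0.00546). Ero1lb showed the same order, with WT-A at 28.2 to 32.2 CPM and the other 12 libraries at 46.4 to 60.9 CPM (interaction 0.91 ± 0.11, adjusted p = 0.00634). For Aldh1l2 WT-A was again the low group (interaction 1.23 ± 0.208, adjusted p = 0.0415). Lbh gave the converse, with WT-A at 234 to 263 CPM and the other 12 libraries at 132 to 181 CPM (interaction −0.66 ± 0.107, adjusted p = 0.035). Krt7 stood at 23.9 to 32.7 CPM in TTP-S and 11.9 to 19.7 CPM in WT-S, a genotype difference opposite in direction to that after adrenalectomy (interaction −1.79 ± 0.304, adjusted p = 0.0415), although the S difference alone was not called (0.64 ± 0.216, adjusted p = 0.435). Dmbt1 did likewise, at 206 to 307 CPM in TTP-S and 109 to 157 CPM in WT-S (interaction −1.999 ± 0.327, adjusted p = 0.035). Eln, elastin, stood at 78.6 to 123 CPM in TTP-A and 112 to 175 CPM in WT-A, and at 112 to 132 and 62.5 to 75.8 CPM in TTP-S and WT-S. Within the S groups 5 genes were called (0.0325%), all higher in TTP-S. Interactions of Slc27a2, Bhlha15 and Pgc did not pass in 16 libraries (adjusted p 0.124, 0.121 and 0.331), and of these Bhlha15 passed in 14 (1.25 ± 0.188, adjusted p = 0.0102).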

How the data were processed

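The deposited table holds whole-number read counts per gene for 16 libraries, made by the authors. The submitters' processing notes name STAR 2.7.0f, featureCounts of Subread 1.6.4, DESeq2 and mm10; their roles, the annotation, the strand setting and any filters are not given in the sources used here. Genes whose reads overlap or repeat may therefore be miscounted. TruSeq libraries were made from TRIzol RNA, per the labels' protocols. The labels do not say that libraries came from separate mice, so p-values measure the spread between these libraries; replicate pairs differed beyond counting noise (chi-square per degree of freedom 7.65 to 94.7 over 12 pairs).

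Counts were fitted in R 4.3.3 with edgeR 4.0.16 (TMM, filterByExpr, 1 mean per group, glmQLFit and glmQLFTest), with Benjamini-Hochberg adjustment. CPM are counts over TMM-scaled totals, and SE is the size of the log2 difference over the root of F. GC offsets came from a loess curve (span 0.5) on the GC content of each gene's longest GENCODE vM21 transcript, known for 15211 (98.9%) of the genes tested. For Zfp36, log2 CPM (prior count 2) went into an exact permutation test as well. The scripts were tested on simulated data. Alternatives used DESeq2 1.42.0, limma 3.58.1 voom with sample weights, other filters and size factors, a replicate block, a minimum log2 fold change of 1, and fits without single libraries.

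Named genes were Zfp36; the 10 largest rises and falls called in both fits with at least 1 CPM in the higher group and no overlap of the groups; the 4 largest each way called in 1 fit only (overlap then judged for 14-library calls against WT-A 1 and 2); and list members. Immunoglobulin and T-cell receptor segments and unnamed gene models were passed over. The genes compared, the 42 lists and the rules were chosen with earlier results of these data known.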

Additional observations from a re-analysis of the deposited data

Results flagged for a closer look

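The following values stood apart by a fixed rule, and no explanation was weighed. In groups of 4 libraries, a library lay far from the other 3 (gap over range above Dixon's 95% critical value, which chance gives in about 1 of 20 groups) for Nrn1 at 47.2 CPM and Aldh1l2 at 44.7 CPM, both highest in TTP-A 3, and for Necab1 at 13.5 CPM, lowest in TTP-A 2. The same held for Cyp2b10 at 9.9 CPM in TTP-A 2, and for Jak3 at 39 CPM and Adprhl1 at 1.13 CPM, both in WT-A 4.

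The genotype difference after adrenalectomy differed from that in the S groups, by the edgeR interaction test in 16 libraries, for 5 genes upward (adjusted p 0.00634 to 0.0415): Erdr1 (log2 3.34), Creg2 (1.69), Aldh1l2 (1.23), Nucb2 (0.99) and Ero1lb (0.91). It differed downward for Dmbt1 (−1.999), Krt7 (−1.79), Eln (−1.24) and Lbh (−0.66). Among the named genes without such a call, the 14-library fit called interactions (adjusted p 0.00547 to 0.0457) upward for Derl3 (1.47), Cbs (1.40), Tmed6 (1.39), Furin (1.37), Bhlha15 (1.25), Slc38a5 (1.24), Pycr1 (0.99), Gif (0.95) and Cxcl12 (0.69). Downward they were called for Nkx6-3 (−5.51), Kcne3 (−2.65), Cyp26b1 (−2.64) and Hp (−1.90). For Nkx6-3, a homeobox factor of the stomach epithelium, TTP-S 2 to 4 stood at 3.29 to 4.61 CPM and TTP-S 1 at 0.324 CPM, while WT-S stood at 0.212 to 0.717 CPM. After adrenalectomy Nkx6-3 was not called (0.185 to 0.918 CPM in TTP-A against 0.739 to 2.86 CPM in WT-A, log2 −1.92 ± 0.704, edgeR adjusted p = 0.105; 14-library 0.0791).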

How the results depend on the processing

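The count of 796 genes became 1636 with DESeq2's Wald test, 279 in the 14 libraries (70.3% of them higher, against 55.5%), 59 at a minimum log2 fold change of 1 and 1 with only the 2 groups, and it ran from 90 to 3205 when single libraries were left out. The 14-library count of 279 became 841 with DESeq2, 465 with voom (58.3% higher), 12 with only the 2 groups and 15 to 464 without single libraries. The interaction count of 9 became 262 with DESeq2, 171 with voom, 24 with GC offsets, 44 in the 14 libraries, and 3 to 231 without single libraries. The Zfp36 difference was called under each alternative but the 2-group fit (0.77, adjusted p = 0.0565), within 0.71 to 0.89 without single libraries. The cause of these moves was not tested. Replicate numbers did not pair the samples (same-number correlations of deviations 0.09, −0.049, −0.257 and −0.197); the replicate block gave 624 (796 without), 187 (279) and 4 (9) genes, and the block with GC offsets 566, 170 and 16.

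Of 1903 alternatives over 106 named genes, 24 turned the sign, all in genes not called in 16 libraries. Leaving out single libraries gave log2 values of −0.0198 to 0.171 for Atp4a (below 0, also at −0.000446, without WT-A 1 or 2), −0.462 to 0.309 for Muc6 (below 0, also at −0.028 and −0.0146, without TTP-A 1 or 4 or WT-A 1), −0.185 to 0.107 for Tff2 (above 0, also at 0.00473 and 0.00282, without TTP-A 3 or 4 or WT-A 4), −0.117 to 0.156 for Slc4a2 (above 0 without WT-A 4) and −0.0323 to 0.188 for Nid2 (below 0, also at −0.00201, without WT-A 1 or 2). Voom gave Muc6 −0.0502, Tff2 0.0498, Slc4a2 0.192 and Il13ra1 −0.0599, and the 14 libraries gave Tff2 0.242, Slc4a2 0.261 and Il13ra1 −0.281. GC offsets gave Tff2 0.0538 and Slc4a2 0.111, the replicate block gave Muc6 −0.216, and block with GC offsets gave Muc6 −0.126, Tff2 0.0662 and Slc4a2 0.117. The 14-library fit rests on 2 WT-A libraries, and genes under 1 CPM have few counts.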

Other observations

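The genes below were chosen after their values were seen, and of them Try4 alone is in a marker list. Of 81 ribosomal protein genes tested (by symbol), edgeR called 26 lower and 0 higher in 16 libraries, against 2.3% of all genes called lower, 25 lower with GC offsets and 4 lower in 14 libraries (0.539% of all genes). Their log2 differences lay below 0 for 77 in 16 libraries and 74 in 14, with medians of −0.19 and −0.10. The count rested on single libraries: it was 3, 7, 3 and 3 without TTP-A 1, 2, 3 or 4, and 50, 36, 3 and 6 without WT-A 1, 2, 3 or 4. Rps20, Rpl28 and Rplp2 were called in both fits. Rps20 stood at 157, 161, 153 and 149 CPM in TTP-A and at 180, 194, 204 and 221 CPM in WT-A (edgeR log2 −0.37 ± 0.059, adjusted p = 0.00795; 14-library −0.28 ± 0.052, adjusted p = 0.0205). With GC offsets its log2 difference was −0.73 (adjusted p = 0.0181). Rpl28 stood at 197 to 215 CPM against 235 to 290 CPM and Rplp2 at 166 to 180 CPM against 199 to 240 CPM (adjusted p = 0.0116 and 0.0115). For each of the 3 the groups were separate, the GC pair held the highest values, and 8 of 8 leave-one-out fits kept the call. Ribosomal protein genes have near-identical pseudogene copies, so their counts are uncertain.

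Tmed6, a cargo adaptor of early secretory vesicles, stood at 95.2, 138, 154 and 113 CPM in TTP-A and at 55.9, 51.8, 72.9 and 112 CPM in WT-A, with WT-A 4 inside the TTP-A range (log2 0.78 ± 0.201, adjusted p = 0.0399; 14-library 1.21, adjusted p = 0.00404; GC offsets adjusted p = 0.0509). Serp1, a stress protein of the endoplasmic reticulum, stood at 185 to 209 CPM against 157, 154, 68.7 and 90.7 CPM. Its log2 difference was 0.74 ± 0.187 in 16 libraries (adjusted p = 0.0365) and 0.33 ± 0.069 in 14 (adjusted p = 0.028), and the GC pair held its lowest levels. Single libraries decided both calls: Tmed6 was called in 3 of 8 leave-one-out fits (without TTP-A 1, WT-A 1 or WT-A 4; highest adjusted p 0.12) and Serp1 in 2 (without WT-A 1 or WT-A 2; highest 0.0993). Among exocrine pancreas genes Try4, a trypsinogen, was higher in 16 libraries only (10.8 to 14.3 CPM against 5.97 to 8.43 CPM, adjusted p = 0.0424; 14-library 0.0967), called in 2 of 8 leave-one-out fits (without WT-A 1 or WT-A 4; highest adjusted p 0.13).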
